A study of Mus musculus with 73 samples.

Results

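Pi16, Cd248, Ly6a, Ly6c1, Penk, Igfbp6, Fstl1, Ebf1, Ackr3 and Angptl4 are 10 genes that mark a fibroblast population of the mouse jejunum, and they were described here among the 21058 genes of a single-cell table of the intestinal stroma and in bulk tissue of the same study. The genes were chosen by their UMI counts in these single cells, where they were found together, so their levels and joint detection in single cells are given as a description with no test. The microdissected tissue and the toxin experiment were not used to choose them and were tested. A cell was called mesenchymal when it held at least 1 transcript, counted by its unique molecular identifier (UMI), of at least 2 of the fibroblast genes Pdgfra, Dcn, Lum, Col1a1, Col1a2 and Col3a1. By this rule 325 of 2347 cells that passed a filter of 400 to 8000 UMIs and at least 250 genes were mesenchymal (13.8%).

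Fibroblasts of the intestine lie in layers. Telocytes, which are large flat cells high in Pdgfra, line the epithelium from crypt to villus tip and send it Wnt and Bmp signals, while fibroblasts positive for Pi16 and Cd34 are known from many organs as cells of the adventitia, the loose tissue around vessels. Pi16 encodes a secreted protein of the CAP family, Cd248 the membrane glycoprotein endosialin, and Ly6a the small surface protein Sca-1, a common marker of fibroblast progenitors.

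The study asked where telocytes that express the stem cell gene Lgr5 lie along the crypt-villus axis and what they signal. Stroma was cut by laser capture microdissection (LCM) from the crypt, villus bottom, villus center and villus tip of 5 male C57BL/6 mice aged 3 months, as 29 samples, with the crypt taken in 3 mice. Single jejunal cells of 3-month-old C57BL/6 males were sorted by EPCAM, CD45, CD31, NT5E and PDGFRa into 384-well plates, and 35 plates of 8 mice (named A to H here) were read. Jejunal epithelium was profiled in bulk from mice aged 4 months of the Lgr5(GFP-ires-DTR/+) strain, in which the receptor for diphtheria toxin (DT) sits in the Lgr5 gene: 4 mice given DT and 4 control mice, all at 48 h. Both groups carry the receptor allele. Any Lgr5+ cell can be lost to DT in these mice, the crypt stem cells included.

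The mesenchymal cells were unevenly spread over mice and plates. Mouse C gave 194 of them, mouse B 111, mouse A 13, mouse G 5 and mouse D 2, and mice E, F and H gave none. A single plate of mouse C held 168 and the next fullest plate 26, so a value over all cells is largely a value of that plate. The cells carried a median of 1028 UMIs (400 to 6461). Of the mesenchymal cells 15 also met the rule for epithelial cells (at least 2 of 8 epithelial genes), and none met those for immune or endothelial cells. The 384 well barcodes mark positions in a plate and each was found in more than 1 plate, so 139 mesenchymal cells share a barcode with another one in a different plate. The LCM samples had 5481 to 17306 genes above 0, and the epithelium libraries held 748458 to 4210158 UMIs.

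Of the 10 genes, 3 lie on chromosome 15 of the mouse genome (GRCm38), Ly6a and Ly6c1 close together on the minus strand at chr15:74994877-74998031 and chr15:75044018-75048830, and Igfbp6 on the plus strand at chr15:102144362-102149511. Pi16 and Angptl4 lie on chromosome 17, at chr17:29317680-29330593 (plus strand) and chr17:33773750-33781830 (minus strand). The others are Cd248 (chr19:5068078-5070682, plus), Penk (chr4:4133531-4138819, minus), Fstl1 (chr16:37776873-37836514, plus), Ebf1 (chr11:44617317-45008091, plus) and Ackr3 (chr1:90203980-90216751, plus). Ly6a and Ly6c1 belong to a family of related genes that share some of their sequence: 29.2% of all 31-base stretches of the Ly6a transcripts and 37.3% of those of Ly6c1 also occur in other genes. Ly6c1 shared most with Ly6c2 (22.9%) and Ly6a shared most with Ly6c1 (21.9%). The share was 0 for Cd248, Penk, Igfbp6, Fstl1 and Ackr3 and at most 3.25% for Pi16, Ebf1 and Angptl4. Values of Ly6a and Ly6c1 are therefore uncertain, since reads could be divided among these copies.

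The same overlap is visible in the oligonucleotides that the study designed to stain these transcripts. Each of its 56 Angptl4 probes matched Angptl4 and no other gene, while 36 of its 37 Ly6a probes matched Ly6a and 12 of the 37 also matched another gene. The probes are 20 bases long and complementary to the transcript. They are shown to make the shared sequence concrete: the first is a probe that matched Ly6a alone, the second also matched Ly6c1, the third also matched Ly6c2, and the fourth matched Ly6c1, Ly6c2 and I830127L07Rik besides Ly6a.
Ly6a alone: gccatcatgtttattggtta
Ly6a and Ly6c1: gcaggcacagtggcaagttc
Ly6a and Ly6c2: acaagaagaatcagcaaaca
Ly6a and several: ctcaggctgaacagaagcac

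Promoters from RefSeq on GRCm38, from 250 bases before to 50 after the start, were found for 6 of the 10 genes (8 promoters). The motif TATAAA, searched on both strands, was present in 3 of these 8 promoters and in 13.6% of all 32851 promoters. It began at position -143 from the RefSeq start in Ly6c1, -148 in Igfbp6 and -8 in Ackr3. The 30 bases around it are shown 5′ to 3′ on the gene's own strand, with the match in capitals, written TTTATA where it lies on the opposite strand.
Ly6c1, chr15:75048963-75048992, minus strand: ctccccaactgcTATAAAtctggcttgatc
Igfbp6, chr15:102144026-102144055, plus strand: tctttcctagcgTTTATAcacatctctttc
Ackr3, chr1:90203960-90203989, plus strand: tcccgcagtgtaTATAAAaggcaagtccgg

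The 10 genes ranged widely in how many mesenchymal cells showed them. Fstl1, a secreted glycoprotein of the follistatin family, was found most often: 181 of 325 cells had a UMI (55.7%), with 614 UMIs in all and a level of 15.4 per 10000 UMIs. Ly6a followed with 160 cells (49.2%) and a level of 14.2. Igfbp6, a binding protein that prefers insulin-like growth factor II, was detected in 118 cells (36.3%; level 9.07).

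Cd248 was detected in 81 cells (24.9%; 235 UMIs; level 5.90). Ly6c1, a surface protein related to Ly6a, and Penk, the precursor of enkephalin peptides, were each found in 75 cells (23.1%), with levels of 4.19 and 3.44 per 10000 UMIs. Angptl4, a secreted inhibitor of lipoprotein lipase, was found in 49 cells (15.1%; level 2.59). The transcription factor Ebf1 was found in 41 cells (12.6%; level 1.53) and Ackr3, a receptor that removes the chemokine CXCL12, in 35 (10.8%; level 1.18). Pi16 was the rarest, with 37 UMIs in 15 cells (4.62%; exact binomial 95% interval 2.61 to 7.50%; level 0.929). Intervals cover counting error only.

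Epithelial-like cells were set beside the mesenchymal ones. Among 1744 such cells, which were deeper (median 1657.5 UMIs), Pi16 and Ackr3 had no UMI at all (a count of 0 allows up to 0.172%), and 7 other genes were detected in 0.0573% (Cd248 and Penk) to 0.975% (Ebf1). Angptl4 was highest, with a UMI in 2.87% of epithelial-like cells. Angptl4, Ebf1 and Ly6a were also detected in the bulk epithelium, with 119, 161 and 87 UMIs over the 4 control libraries. These libraries also held UMIs of immune and fibroblast genes. The source of the UMIs of the 3 genes was not tested, in the bulk libraries or in the epithelial-like cells. Only 6 cells were endothelial-like, and of these 4 had Ly6a and 3 had Ly6c1. When every cell was thinned to 400 UMIs, the share of mesenchymal cells with a UMI fell to 2.19% for Pi16, 12.5% for Cd248, 30.7% for Ly6a and 33.3% for Fstl1, with Fstl1 still highest and Pi16 lowest of the 10.

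The cells at the edge of the rule differed from those outside it. In the 23 cells with exactly 2 of the 6 fibroblast genes, 39.1% had Fstl1, 34.8% Ly6a and 8.70% Pi16. In the 64 cells with exactly 1, which were deeper (median 2927.5 against 591 UMIs), the shares were 10.9%, 4.69% and 0.

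**Figure D1:**
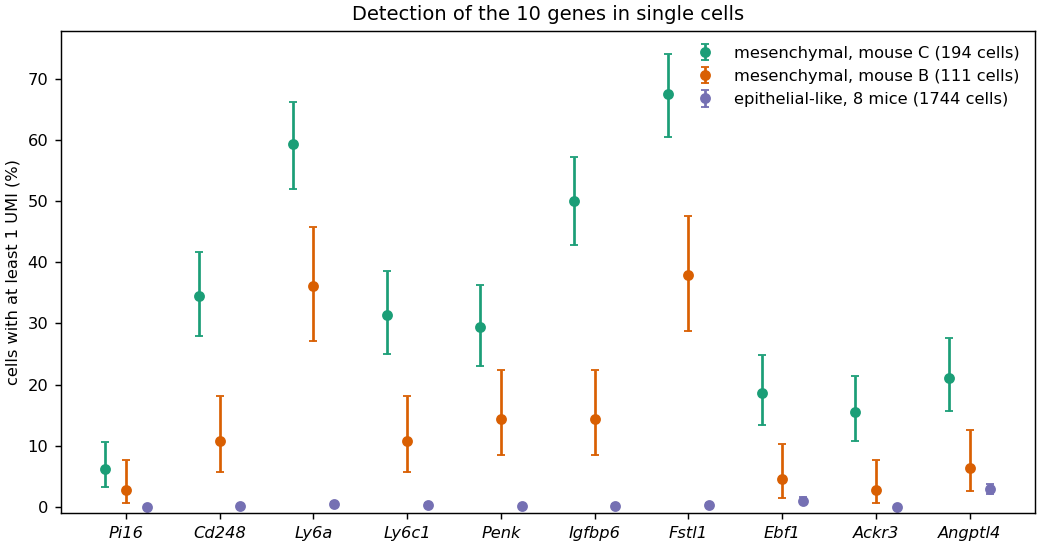
Share of cells with at least 1 UMI of each gene (percent, vertical axis) in the mesenchymal cells of mouse C (194 cells) and mouse B (111 cells) and in 1744 epithelial-like cells of 8 mice; bars are exact binomial 95% intervals. Each of the 10 genes was found more often in mouse C than in mouse B, and the epithelial-like cells sit at or near 0 except for Angptl4 at 2.87%.

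The 2 mice with most cells differed. Cd248 was detected in 34.5% of the cells of mouse C and 10.8% of those of mouse B. The same order held for Igfbp6 (50.0% against 14.4%), Ly6a (59.3% against 36.0%), Fstl1 (67.5% against 37.8%), Ly6c1 (31.4% against 10.8%), Penk (29.4% against 14.4%) and Angptl4 (21.1% against 6.31%). The rarer genes followed it too, with Ebf1 at 18.6% against 4.50%, Ackr3 at 15.5% against 2.70% and Pi16 at 6.19% against 2.70%. The cells of mouse C were deeper (median 1220 against 877 UMIs), and the mice were sorted differently: of the 111 cells of mouse B, 54 came from a gate labelled EPCAM PDGFRa doublets, 25 from NT5E PDGFRa doublets and 32 from PDGFRa singlets. Without the plate that held 168 cells, the 157 cells left showed Fstl1 in 40.8%, Ly6a in 36.9%, Igfbp6 in 21.0%, Penk in 15.3%, Cd248 in 14.6%, Ly6c1 in 13.4%, Angptl4 in 9.55%, Ackr3 in 5.10%, Ebf1 in 4.46% and Pi16 in 3.18%. Fstl1 and Ly6a stayed first in order and Pi16 last. With 1 animal on each side no test was possible, and mouse, plate, gate and depth cannot be told apart.

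The genes tended to be found in the same cells. Expected numbers of shared cells were computed as if the genes were independent. All 45 pairs were observed together more often than that, by a median of 1.85 times, and 17 pairs at least 2 times as often. The lowest ratio was 1.27 (Ly6a with Penk) and the highest 3.71 (Pi16 with Ackr3, 6 cells). Pairs of other genes also tended to exceed 1. Over 4495501 pairs of 2999 other genes detected in 15 to 181 cells, the median ratio was 1.20. Of these pairs 67.8% were above 1 and 10.9% were at or above 2. These genes were taken by detection alone and may be related. The part of depth, mouse or cell type in their ratio was not tested.

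Pi16 and Cd248 were found together in 11 cells against 3.74 expected, a ratio of 2.94. These 11 cells were 73.3% of the 15 cells with Pi16 and 13.6% of the 81 with Cd248. All 15 Pi16 cells had Ly6a, 14 had Igfbp6 and 14 had Fstl1. Across partners Pi16 had the highest median ratio of the 10 genes (2.65) and Fstl1, the most widespread, the lowest (1.51). A ratio cannot exceed the number of all cells divided by that of the more often detected gene, so common genes have a lower ceiling. Pi16 with Ly6a, at 2.03, stood at this ceiling. The order of the genes was not separated from how often each was detected. Within mouse C all 45 pairs exceeded 1 with a median of 1.45, and within mouse B 42 of 45 did with a median of 2.78. In mouse B only 5 pairs had at least 5 cells expected, and 3 pairs shared no cell. In 3 equal groups of cells of low, middle and high total UMIs the median ratio was 2.12, 1.86 and 1.34, and 34, 43 and 44 of the 45 pairs exceeded 1. In the lowest group 9 pairs shared no cell and only 2 had at least 5 cells expected. After thinning to 400 UMIs the median was 1.91, again with 45 of 45 above 1, and without the plate of 168 cells it was 2.56 with 44 of 45 above 1. The ratio of other genes was computed over all mesenchymal cells only, not within mice or these groups, after thinning or without that plate.

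**Figure D2:**
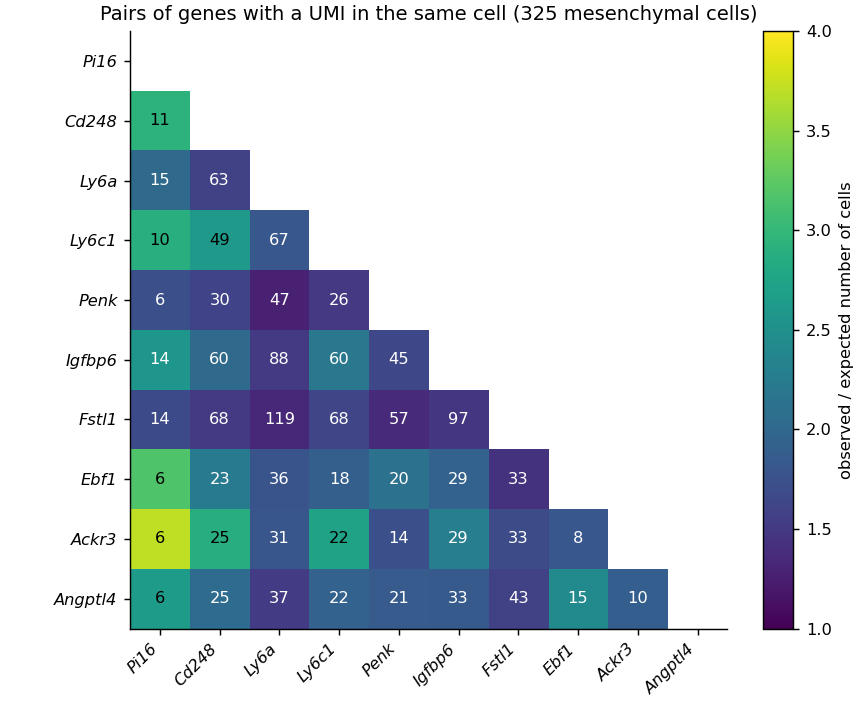
Numbers of the 325 mesenchymal cells with a UMI of both genes of a pair (printed) and the ratio of that number to the one expected if detection were independent (color). Every pair lies above 1, and the pairs that involve Pi16 are among the brightest, with Pi16 and Ackr3 at 3.71. The highest ratio possible is lower for genes seen in more cells, such as Fstl1 and Ly6a.

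Most mesenchymal cells showed few of the 10 genes. No member was seen in 75 cells and 1 in 73, while 106 cells (32.6%; exact 95% interval 27.5 to 38.0%) showed at least 4 and a single cell showed 9. Cells with at least 4 made up 89 of 194 in mouse C (45.9%), 15 of 111 in mouse B (13.5%) and 0 of 13 in mouse A. The number of genes seen rose with depth (Pearson r = 0.524 with the logarithm of total UMIs over 325 cells, which share libraries and depth). Each gene's log level correlated with the mean of the other 9 across the same cells, from r = 0.267 for Penk to 0.583 for Ly6c1.

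Cells with a UMI of Pi16 or Cd248 numbered 85 (71 in mouse C, 12 in mouse B and 2 in other mice), and they were set beside the 240 without. The 85 were deeper (median 1502 against 900 UMIs), so levels are per 10000 UMIs. All 8 other genes of the list were higher in the 85 cells, in mouse B and in mouse C alike. The ratio of levels ran from 1.96 for Penk to 5.25 for Ly6c1. Over all 2295 genes compared, 57.9% were higher in the 85 cells and the median ratio was 1.09. With cells thinned to 400 UMIs, Ly6c1 was seen in 26.4% of the 85 cells and 5.05% of the 240, Ackr3 in 8.58% and 1.91%, Angptl4 in 14.6% and 4.04%, and Penk in 14.9% and 9.40%.

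Lists of genes of other stromal types were described in the same cells. The lists were drawn with earlier results of these data known, so their counts are a description and no independent evidence of a cell type. Of 21 measured adventitial fibroblast genes 19 were higher in the cells with Pi16 or Cd248 and 2 lower, with a median ratio of 1.82. Within mouse B 19 were higher and 2 lower, and within mouse C 18 and 3. Among them were Tppp3 (4.31), the elastic fibre protein Mfap5 (3.79) and Sema3c, a secreted guidance protein (2.96), each of them higher in both mice. The lower ones were Dpp4 (0.607), itself a marker of adventitial fibroblasts in other organs, and the retinoic acid enzyme Aldh1a3 (0.443). Each was lower in 1 of the 2 mice. Dpp4 was at 0.30 in mouse C (2 of 71 cells against 7 of 123) and 5.98 in mouse B, where it was seen in 1 of 12 cells against 1 of 99. Aldh1a3 had no UMI in the 12 cells of mouse B, against 23 of the 99 others, and was at 1.43 in mouse C. In mouse C Dpt (0.865) and Col14a1 (0.775) were the other lower genes.

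Mouse B gave 12 of the 85 cells and 99 of the 240, so a ratio over all cells also holds the difference between mice. Crypt telocyte genes differed between the mice, with 3 higher and 4 lower in mouse B and 0 and 8 in mouse C (1 and 7 over all cells, median 0.463). The Bmp antagonist Grem1 was at 1.12 in mouse B, where it was seen in 1 of the 12 cells, and 0.167 in mouse C. Complement C3 was at 5.30 and 0.776. Villus tip telocyte genes were 0 higher and 7 lower in mouse B and 4 and 4 in mouse C, which holds most of the 85 cells (2 and 6 over all cells, median 0.278). In mouse B only Wnt5a of these genes had a UMI in the 12 cells. The study reports Mfap5, Emilin2 and Fbn1 as raised in its villus tip telocyte cluster, and Ly6a and Angptl4 by in situ staining. Mfap5, Emilin2 and Fbn1 are counted here among adventitial fibroblast genes, and Ly6a and Angptl4 among the 10 genes described. The study's single cells put Bmp2 and Bmp4 higher in crypt telocytes, while its in situ staining put both higher in villus tip telocytes. As a possible reason it names low capture of transcripts of the latter. It also stained Rspo3 in villus tip telocytes. Here Bmp2 and Rspo3 are counted among crypt telocyte genes and Bmp4 among villus tip telocyte genes. The counts of these lists therefore depend on how the lists were drawn. Bmp4 was lower in both mice, with no UMI in the 12 cells of mouse B and a ratio of 0.0857 in mouse C. Wnt5a was at 0.272 and 1.13. Bmp3 and Bmp5 had no UMI in the 85 cells. Among the cells without Pi16 or Cd248 they were seen in 11 and 20 of the 99 of mouse B. In mouse C each was seen in 1 of 123. Lgr5 itself was seen in 4 of the 85 (4.71%) and 4 of the 240 (1.67%), a ratio of levels of 2.27. Within mouse C, which held 4 and 3 of these cells, the ratio was 2.00.

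Of 7 myofibroblast genes 6 were lower. Acta2, the smooth muscle actin, had a UMI in 0 of the 85 cells (which allows up to 3.53%) against 45 of the 240, of which 35 were among the 99 of mouse B and 7 among the 123 of mouse C (5.69%). Myl9, a myosin light chain, was seen in 8 of the 85 cells, and within mouse C in 9.86% of the cells with Pi16 or Cd248 and 10.6% of those without. All 7 genes of an enteric mesothelial fibroblast list were lower, in both mice. In mouse B this rests on 12 cells with Pi16 or Cd248, in which only Rgs5 and Angptl2 were seen, in 1 cell each. Ptn and Slc12a2 were seen in only 4 and 2 of the 99 others there, so a 0 in 12 cells says little for them. The 6 genes that define mesenchymal cells here were 4 higher and 2 lower in mouse B and 0 and 6 in mouse C (median ratio over all cells 0.734).

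**Figure D3:**
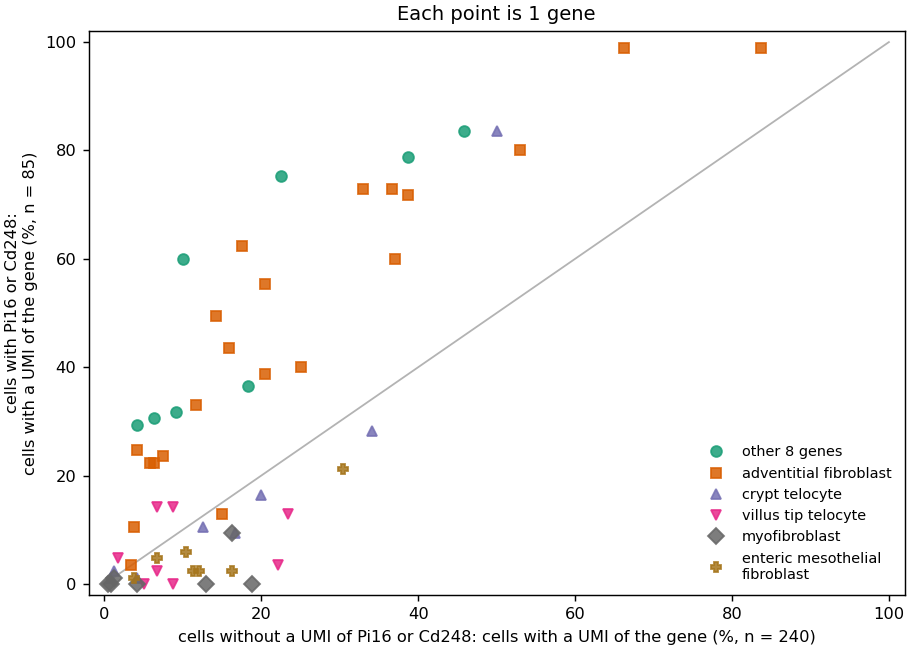
Share of cells with a UMI of each gene (percent) in the 85 mesenchymal cells with Pi16 or Cd248 (vertical) against the 240 without (horizontal), before thinning; each point is 1 gene, colored by list, and the line marks equal shares. The other 8 genes of the list lie above the line, and Acta2 has 45 cells on the horizontal axis, 35 of them of mouse B, and 0 on the vertical.

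Genes outside the list with the most similar pattern were ranked by their correlation with the mean of the 10 across the 325 cells, over 2286 genes seen in at least 20 cells. The highest were the calcium-binding protein S100a6 (r = 0.593), Ly6c2 (0.588), Mfap5 (0.574), the actin-severing protein gelsolin, Gsn (0.532), S100a10 (0.485), Cd34 (0.465), the ferritin receptor Scara5 (0.437) and Anxa1 (0.434). Ly6c2 was seen in 57 cells, of which 54 also had Ly6c1, and these are the copies that share sequence. The lowest were Adamdec1 (-0.438), Tmem176b (-0.358), the pericyte gene Rgs5 (-0.300), Bmp4 (-0.279) and the endothelin receptor Ednrb (-0.266). The mean of the 10 itself had r = 0.441 with the logarithm of total UMIs.

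The LCM samples were then used to ask whether the villus tip is the zone in which each gene is highest. Their TPM values (transcript abundance corrected for transcript length) were rescaled after removal of genes that make up the bulk of the epithelium, and are given as ppm, parts of 1e+06 of the sum that remained, for each mouse, which is the replicate. Cd248 was not analysed here. None of the 9 other genes was called higher or lower at the tip against the other zones, by limma across 13535 genes with Benjamini-Hochberg adjustment. No gene of the 13535 was called (0%), and the smallest adjusted p was 0.267. At an unadjusted p under 0.05 the count was 733 genes (5.42%) and 2 of the 9, Ackr3 and Ly6a, both lower at the tip. In these bulk samples fewer cells of a type and less RNA per cell cannot be told apart.

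Pi16 was highest on average at the villus tip, at 54.0 ± 83.4 ppm (SD, n = 5), against 31.4 ± 38.2 in the villus center, 24.0 ± 19.0 in the villus bottom and 23.5 ± 23.6 in the crypt (n = 3). Mice 1 to 5 had 2.11, 7.49, 42.4, 201 and 17.4 ppm at the tip. Mouse 4 was high in each villus zone (55.0 in the bottom and 93.9 in the center), and without it the crypt had the highest mean. The tip was the highest zone in 2 of 5 mice and the crypt in 2 of the 3 in which it was taken. The zones overlapped, and the fitted difference was 0.23 (log2 of ppm + 1; SE 0.88; limma adjusted p = 0.976), which became -0.16 without mouse 3, -0.25 without mouse 4 and -0.10 with the mouse as a block. The exact permutation within mice gave p = 0.943.

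Ly6a at the tip lay below the mean of the other zones in 5 of 5 mice. At the tip, mice 1 to 5 had 2.55, 31.2, 100, 7.62 and 11.3 ppm, and at the villus bottom 44.6, 161, 202, 79.2 and 63.6 ppm. Thus each mouse had less at the tip than at the bottom, while the groups overlapped between mice. Against the mean of the other zones the log2 difference was -1.82 (SE 0.81; unadjusted p = 0.0338, limma adjusted p = 0.878). In an exact two-sided permutation of the zones within mice (576 arrangements, smallest possible p = 0.00174) it was -1.71 with p = 0.0399. Without mouse 1, 2 or 5 the exact permutation p was 0.222, 0.104 and 0.146. By in situ staining the study reports both Ly6a and Angptl4 as higher in villus tip telocytes than in crypt telocytes. Those are counts in single telocytes, whereas the values here are levels over all stromal cells of a zone, so the measures are unlike.

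Ackr3 was also low at the tip. Mice 1 to 5 had 0.479, 0, 5.16, 3.55 and 0 ppm there, with villus bottom values of 7.05, 10.0, 9.13, 3.05 and 4.22 and villus center values of 13.6, 8.05, 6.18, 0.991 and 7.23. The tip was below the bottom in 4 mice and above it in mouse 4. The log2 difference was -1.55 (SE 0.65; unadjusted p = 0.0256, limma adjusted p = 0.878), and the exact permutation within mice gave p = 0.0122, or 0.0625 without mouse 2. These p-values are not adjusted for the 9 genes. The levels are low, so a value of 0 may be a transcript missed.

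For the remaining 6 genes the exact permutation p ran from 0.115 to 0.880. Fstl1 was the other gene with its highest mean at the tip (151 ± 129 ppm, n = 5), but its median was highest in the villus center and the tip led in 2 of 5 mice only. Its tip values were 56.2, 35.2, 86.0, 317 and 261 ppm. Ebf1 was high in all zones, with means of 222 to 298 ppm. The crypt mean, over 3 mice, was highest, but the crypt led in no single mouse and the median was highest in the villus center. Mouse 2 lay between 517 and 705 ppm in every zone. Ly6c1 ran from 0 to 98.5 ppm at the tip, where the highest value is the mean of a section at 0 and another at 197 ppm of mouse 3, and from 17.4 to 386 in the villus bottom, its highest zone. Without mouse 4 the crypt had the highest mean of Ly6c1. The exact permutation p for Ly6c1 was 0.234 with all mice, with the tip below the mean of the other zones in 3 of 5. It was 0.396, 0.674, 0.0347, 0.568 and 0.0885 without mouse 1, 2, 3, 4 and 5.

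Penk was nearly missing at the tip, with 0.0829 ppm in mouse 1 and 0 in the other 4 mice, and lay below the mean of the other zones in 5 of 5 mice (exact permutation p = 0.115). Its highest mean, 12.4 ppm in the villus center, came from 60.9 ppm in mouse 3. Angptl4 likewise had its highest mean in the center, where mouse 3 reached 46.8 ppm and the others 0 to 5.18, and its tip values were 2.38, 0, 1.18, 5.35 and 8.84 ppm.

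Igfbp6 had the widest range of all. It was 2038, 0, 89.9, 446 and 0 ppm in the villus center of mice 1 to 5, and 5.65, 0, 33.6, 0 and 0 at the tip. In the 3 mice with any signal the center was the highest zone and the tip lay below the mean of the others (exact permutation p = 0.354). The 2038 ppm of mouse 1 is the mean of a section at 4059 ppm and another at 17.0 ppm, so it rests on 1 library. Other stromal genes also differed between the center samples. The sum of 5 measured myofibroblast genes was 12104 ppm in mouse 1 and 2682 in mouse 4. It was 46.8 in mouse 3, and 124 and 199 in mice 2 and 5. The fibroblast genes of the mesenchymal rule summed to 1683, 201, 861, 805 and 82.3 ppm in mice 1 to 5. The pericyte and enteric mesothelial fibroblast sums were highest in mouse 4, at 852 and 1291 ppm. The part of any of these genes in the Igfbp6 values was not tested.

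**Figure D4:**
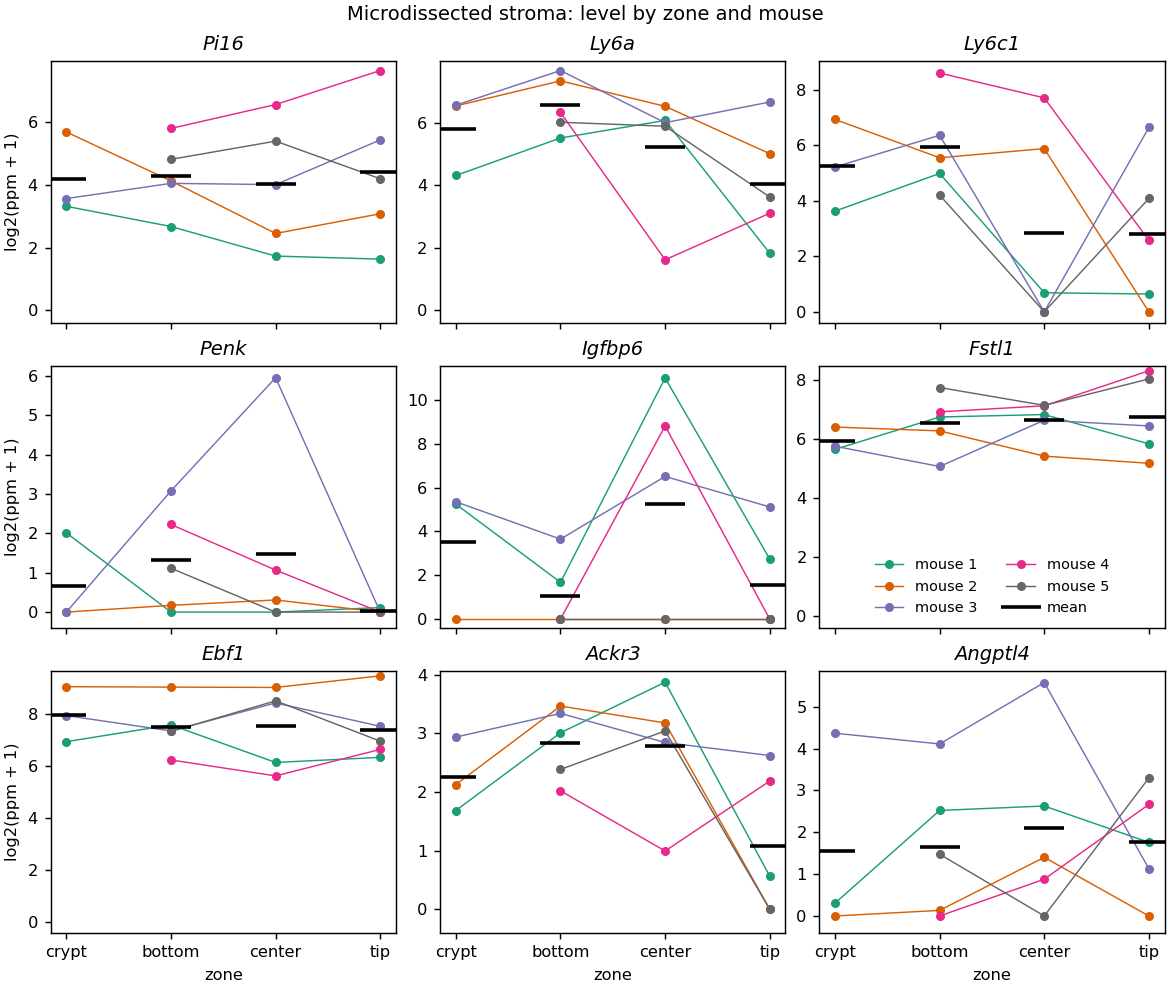
Level of the 9 genes analysed in microdissected stroma, as log2(ppm + 1), by zone from crypt to villus tip; colored lines are mice 1 to 5, with the crypt taken in mice 1 to 3, and black bars are means. Ly6a at the tip lies below its villus bottom value in each mouse, and the high tip mean of Pi16 comes from mouse 4 at 201 ppm.

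Of the 9 genes 3 were higher and 6 lower at the tip than in the other zones, with a median log2 difference of -1.13 against 0.08 over all genes tested. Other stromal genes stood as follows. All 6 fibroblast genes of the mesenchymal rule were lower at the tip, 2 of them at an unadjusted p under 0.05. Their summed level had a median of 85.9 ppm at the tip (40.2 to 417) against 155 in the villus bottom (78.2 to 311), 805 in the center (82.3 to 1683) and 427 in the crypt (153 to 663). The adventitial fibroblast list had 5 genes higher and 13 lower of 18 tested (median -0.84), and no gene of either list was called after adjustment. The summed endothelial genes, by contrast, had medians of 1535 to 2061 ppm in the 4 zones, with a range at the tip of 599 to 4266. The part of the fibroblast and endothelial content in the Ly6a and Ackr3 values was not tested.

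The tip was also compared with the crypt alone, the other end of the axis. No gene was called (0%), 441 of 13535 had an unadjusted p under 0.05 (3.26%), and none of the 9 was among them. Again 3 of the 9 were higher and 6 lower at the tip (median -0.65). The exact permutation p over mice was at least 0.25 for each, where 5 tip against 3 crypt values allow 0.0357 at the smallest. This permutation left out the pairing, since the 3 crypt mice are among the 5 tip mice. In these 3 mice the tip lay above the crypt in 2 for Fstl1 and in 1 or 0 for the rest.

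In the epithelium of DT and control mice the genes were mostly at or near 0. Pi16 had 0 UMIs in all 8 libraries, Cd248 1 UMI, Ly6c1 and Ackr3 2 each, and Penk 7. Igfbp6 had 27 UMIs over the 4 control libraries and 8 over the 4 DT libraries, Fstl1 16 and 10, and Ly6a 87 and 42. The fibroblast genes of the mesenchymal rule summed to 2.90 to 21.1 CPM (UMIs per 1e+06 in the library). Lgr5, whose cells carry the toxin receptor, stood at 42.8, 69.5, 11.2 and 24.2 CPM in control replicates 1 to 4 and 47.2, 32.4, 6.37 and 13.2 in DT replicates 1 to 4, so the groups overlapped.

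Only Angptl4 and Ebf1 passed the filter on low counts, and neither was called. Over 8986 genes edgeR's quasi-likelihood test with batch as a term called 32 (0.356%), 2 of them higher after DT and 30 lower, and 1551 (17.3%) had an unadjusted p under 0.05. Angptl4 was at 10.4, 13.4, 10.2 and 13.7 CPM in control replicates 1 to 4, and at 11.8, 40.1, 105 and 23.8 CPM after DT. The DT values spread far more widely, and 3 of 4 lay above every control. The log2 fold change was 1.98 (SE 0.59; unadjusted p = 0.00908, edgeR adjusted p = 0.222). DESeq2 gave an adjusted p of 0.0311, and without DT replicate 3 the edgeR fold change was 1.06 with an adjusted p of 0.319. Within batch a (replicates 1 and 2) the groups overlapped, and within batch b (replicates 3 and 4) they did not.

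Ebf1 was at 38.0, 56.1, 11.9 and 3.76 CPM in controls and 30.3, 22.7, 1.86 and 6.17 after DT. Batch a lay above batch b in both groups. The log2 fold change was -0.99 (SE 0.37; unadjusted p = 0.0202, edgeR adjusted p = 0.232). Ebf1 is also a B cell factor, and the sum of 5 B cell genes was 34.7 CPM in control replicate 3 and 0 to 3.45 in the other libraries. Control replicate 2, the highest for Ebf1, had 0 and was the library with the fewest UMIs (748458). The part of B cells in the Ebf1 values was not tested.

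**Figure D5:**
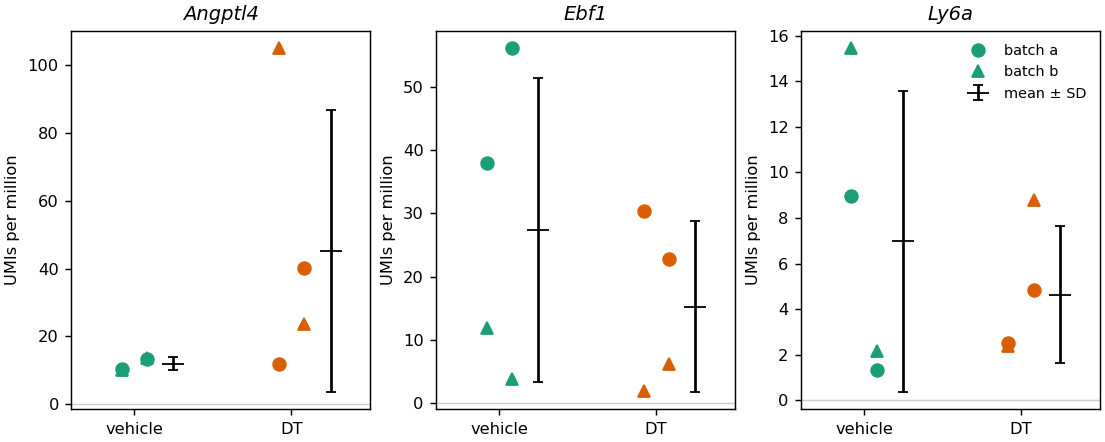
Level of Angptl4, Ebf1 and Ly6a in jejunal epithelium (CPM) in 4 control (vehicle) and 4 DT libraries at 48 h; points are libraries, with the batch given by shape, and bars are means ± SD. Angptl4 was at 10.2 to 13.7 CPM in controls and 11.8 to 105 after DT, both batches overlap between groups for Ly6a, and for Ebf1 batch a lies above batch b in each group.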

How the data were processed

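Microdissected stroma (29 LCM samples), sorted single cells and 8 libraries of jejunal epithelium were used. The authors deposited the LCM data as TPM per gene, made with kallisto 0.43.0 from SMART-seq reads. They deposited single cells (MARS-seq) and epithelium (mcSCRBseq) as UMI counts per gene, made with zUMIs on GRCm38. Both count tables are of 3' tags. The submitters' processing notes name bcl2fastq 2.15.0.4. The authors subtracted a background of empty wells in their own analysis of single cells, which was not repeated here. Single-cell libraries hold no doublet call, and none was run: gates labelled as doublets were left out in an alternative.

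The members and lists were chosen with earlier results of these data known. All 10 genes were named; of the others, the 8 highest and 5 lowest by correlation with their mean, and members of the lists. Of the wells, 352 matched no sample's plate name and were left out, of which 13 would have passed the filter. Of 12346 matched wells, 2347 held 400 to 8000 UMIs and at least 250 genes. Levels are UMIs per 10000 over the summed cells. Shares carry exact binomial 95% intervals. The floor of a 0 is 3 counts.

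LCM values were rescaled by the steps of the study, with another source for the genes removed: the study took them from published enterocyte data not used here, and here 378 genes, those that make up 50% of the control epithelium of the toxin experiment and are neither ribosomal nor mitochondrial, were removed. The rest were divided by the sum of genes each under 1%, to give ppm. The mean of the sections of 1 zone of a mouse was taken, and genes with a zone mean above 5 ppm were tested with limma 3.58.1 on log2(ppm + 1), zone as the only term. Mouse numbers name animals, so zones of a mouse are paired. The correlations of deviations from the zone means between the crypt and tip samples of mice 1 to 3 were 0.36, -0.07 and 0.11, and a fit with the mouse as a block was an alternative. For each member, zones were also permuted within mice (exact, two-sided). For tip against crypt the values were permuted without this pairing.

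Epithelium counts were tested with edgeR 4.0.16 (quasi-likelihood, robust, TMM, batch as a term) on genes above 1e-05 of the UMIs in at least 2 libraries. DESeq2 1.42.0 was an alternative. Batches a and b are those the study gives for the toxin experiment. Adjusted p-values are Benjamini-Hochberg, and 0.05 was the threshold. Where sections and libraries are not said to be separate animals, p-values measure only the spread between these samples. Both models were tested on simulated data. Alternatives changed the scaling, the value added before the logarithm, the filters, the replicates and the block. R 4.3.3, Python 3.11.15, numpy 2.4.6, scipy 1.17.1 and pandas 2.3.3 were used.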

Additional observations from a re-analysis of the deposited data

Results flagged for a closer look

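Over the 42 groups of 4 or 5 samples tested, 14 had 1 sample far from the others by Dixon's test at its 95% level, which chance alone gives in about 1 of 20 groups. The groups hold related genes of the same samples, and many values are at or near 0. In the microdissected stroma Pi16 at the villus tip of mouse 4 (201 ppm, next 42.4) stood apart. In the same mouse Ly6c1 did so in the villus bottom (386 ppm, next 80.9) and the villus center (207 ppm, next 57.7).

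Mouse 3 stood apart for Angptl4 in the villus center (46.8 ppm, next 5.18), Penk in the villus center (60.9 ppm, next 1.09), Ly6c1 at the villus tip (98.5 ppm, from sections at 0 and 197 ppm, next 15.9), and Igfbp6 in the villus bottom (11.5 ppm, next 2.19) and at the villus tip (33.6 ppm, next 5.65). Mouse 2 stood apart for Ebf1 in the villus bottom (522 ppm, next 190) and at the villus tip (705 ppm, next 183). Mouse 1 stood apart for Igfbp6 in the villus center (2038 ppm, from sections at 4059 and 17.0 ppm, next 446) and for Penk at the villus tip (0.0829 ppm, the others at 0). In the epithelium Cd248 in control replicate 3 (0.238 CPM) and Penk in DT replicate 2 (0.483 CPM) were the only values above 0 in their group, from 1 UMI each.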

How the results depend on the processing

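Under every alternative run, no listed gene was called in the LCM contrasts. Tip against crypt called 2 genes with no filter on low values, where 0 were called otherwise. In tip against the other zones, Angptl4 turned from 0.0025 to -0.15 with 10 added before the logarithm, -0.034 with TPM as deposited and -0.36 with sections as samples, and lay between -0.57 and 0.0013 without mouse 1, 2, 4 or 5 (it did not pass the filter without mouse 3). Pi16 turned from 0.23 to -0.067 with sections as samples and lay between -0.25 and 0.66 without each mouse. Against the crypt, Angptl4 turned to -0.13 and -0.22 under the first and last of these settings (-0.41 to -0.012 without the same mice, and 1.78 without mouse 3 as a plain difference of means) and Pi16 to -0.59 with sections as samples (-0.60 to 1.29). With the mouse as a replicate block, Pi16 turned to -0.10 against the other zones and -0.79 against the crypt; the block changed no other sign or call in these contrasts. Within mice, leaving out 1 mouse turned Pi16 (-0.35 to 0.29), Fstl1 (-0.053 to 0.48), Ebf1 (-0.36 to 0.054) and Angptl4 (-0.48 to 1.05). The number of listed genes highest at the tip was 2, 1 with mice 1 to 3 alone, and 1 to 3 without each mouse (1 without mouse 4).

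In the toxin experiment the 32 calls became 143 with DESeq2, 635 with no filter on low counts (listed genes called 1 and 2) and 3 to 41 when 1 library was left out: 3, 21, 10 and 11 without control replicates 1, 2, 3 and 4, and 7 and 9 without DT replicates 2 and 3. Angptl4 kept its direction, with adjusted p from 0.0741 to 0.499 in those edgeR fits. The labels pair no animals here. Same-numbered libraries correlated at 0.42 to 0.66, and at -0.16 and -0.06 within batches; a replicate block gave 3 calls, with Angptl4 at 1.64 (adjusted p = 0.375). In single cells, the share with a UMI was lower for all 10 genes after thinning, without mouse C and without the plate with most mesenchymal cells (chosen after seeing the data), and higher for all 10 without mouse B (8 genes beyond the main interval), without the doublet gates (3) and without cells that meet another rule (0). All 45 pairs stayed above 1 in 7 of 9 alternatives, with 42 without mouse C and 44 without that plate.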
